A study of Homo sapiens with 6 samples.

Results

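The transcripts described here are the RNAs encoded by the mitochondrial genome, taken as every gene row of the deposited count table whose symbol starts with MT-. This prefix picked out 37 of the 31966 genes in the table: 13 mRNAs, 2 ribosomal RNAs (rRNAs) and 22 transfer RNAs (tRNAs). The rule itself used no measured value, although earlier results of these data were known when it was chosen. Kasumi-1 is an established human acute myeloid leukaemia (AML) line that carries the RUNX1-RUNX1T1 fusion. The control group (shLUC, 3 libraries) expressed a doxycycline-inducible short hairpin RNA against luciferase, and the FBL knockdown group (shFBL, 3 libraries) expressed one against FBL. All 6 samples received 100 ng/ml doxycycline for 72 h, so the drug is shared by both groups, and only 1 line was used. FBL is fibrillarin, the nucleolar methyltransferase that places 2'-O-methyl groups on cytoplasmic rRNA guided by box C/D small nucleolar RNAs. The series set this RNA beside mass spectrometry of newly made proteins, which was not analysed here; the question for the mitochondrial transcripts is whether their levels differed between shFBL and shLUC cells.

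The human mitochondrial genome is a small circle read from both strands into long precursor RNAs. The heavy-strand promoter gives RNA of the same sense as the plus strand of the reference, with both rRNAs, all mRNAs but MT-ND6, and most tRNAs. The light-strand promoter gives the minus-strand RNA with MT-ND6 and the remaining tRNAs. The tRNAs stand between the longer genes like punctuation marks, and the precursors are cut at both ends of each tRNA by RNase P and ELAC2. The mRNAs encode core subunits of respiratory complexes I, III and IV and of ATP synthase, and the rRNAs build the mitochondrial ribosome that translates them. All enzymes for copying, transcribing, cutting and modifying these RNAs are encoded in the nucleus. Most mitochondrial mRNAs and the rRNAs carry short poly(A) tails, while mature tRNAs are short and folded, so libraries of long RNA count them poorly.

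Sequences of the 4 tRNAs with the largest called rises and of the 2 tRNAs with the most reads are shown here because the tRNA results below turn on where these genes lie and which strand they use. They are from the GENCODE v29 transcripts on GRCh38, 5′ to 3′ in the sense of the tRNA, without the CCA end, which is added after transcription, and with the anticodon in capitals.
MT-TF (chrM:577-647, plus strand): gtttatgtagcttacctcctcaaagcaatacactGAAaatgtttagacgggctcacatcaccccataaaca
MT-TW (chrM:5512-5579, plus strand): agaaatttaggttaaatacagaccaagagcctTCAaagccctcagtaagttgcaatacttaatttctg
MT-TN (chrM:5657-5729, minus strand): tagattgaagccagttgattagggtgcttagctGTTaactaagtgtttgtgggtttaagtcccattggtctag
MT-TC (chrM:5761-5826, minus strand): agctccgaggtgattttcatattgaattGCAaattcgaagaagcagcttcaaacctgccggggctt
MT-TS1 (chrM:7446-7514, minus strand): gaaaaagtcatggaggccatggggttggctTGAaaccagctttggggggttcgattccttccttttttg
MT-TP (chrM:15956-16023, minus strand): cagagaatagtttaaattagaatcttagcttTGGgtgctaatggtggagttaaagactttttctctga
MT-TF, MT-TW, MT-TN and MT-TC carry phenylalanine, tryptophan, asparagine and cysteine, and MT-TS1 and MT-TP carry serine and proline. MT-TF is the first gene of the heavy-strand transcript, and MT-TN and MT-TC lie on the opposite strand between MT-ND2 and MT-CO1. MT-TS1 lies against the 3′ end of MT-CO1 on the strand opposite to it.

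Library totals were 85556322 to 103148412 reads assigned to genes. FBL was measured at 580.2, 549.5 and 544 CPM in the 3 shLUC libraries and 54, 32.4 and 44.9 CPM in the 3 shFBL libraries, where CPM is the count per library total, scaled with TMM (a trimmed mean of log ratios between libraries), and its log2 fold change was -3.67 ± 0.16 (SE) with an edgeR adjusted p of 3.93e-06. All 8 Kasumi-1 markers chosen passed the filter on low counts, with means over the 6 libraries from 0.856 CPM for PTPRC to 6333 CPM for MPO. CD34 was called higher (0.66 ± 0.13 on the log2 scale) and MPO lower (-0.42 ± 0.11) after knockdown, and the other 6 were not called. Among markers of other cell types, CD3E averaged 0.223 CPM and EPCAM, ALB, COL1A1 and PECAM1 averaged at most 0.0595 CPM. No label ties the replicates to separate cultures, so the p-values speak of the spread among these libraries alone, and that spread may be technical. Fold changes are given as knockdown over control. A gene was called where the edgeR quasi-likelihood test gave an adjusted p under 0.05 over all 18486 genes that passed the filter.

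Mitochondrial rRNAs and several tRNAs were higher after FBL knockdown, while most mitochondrial mRNAs were not called. Of the 37 transcripts, 32 passed the filter, 12 were called higher and 0 were called lower. That is 37.5% of those tested, beside 32.8% of all genes tested, so the share called was close to the background. All 12 calls were rises, whereas 15.8% of all genes tested were called higher and 17.0% lower. The 12 were both rRNAs, 1 of 13 mRNAs (MT-ND3) and 9 of 17 tested tRNAs (MT-TF, MT-TI, MT-TQ, MT-TM, MT-TW, MT-TA, MT-TN, MT-TC and MT-TP). The median log2 fold change was 0.67 for the rRNAs, 0.44 for the tested tRNAs and 0.18 for the mRNAs, beside -0.01 over all genes tested. In 13 of the 32, all knockdown libraries lay above all control libraries in CPM, which was so for 22.1% of all genes tested (45.2% did not overlap in either direction). In bulk RNA, a difference in the number of cells of a type cannot be told apart from a difference in RNA per cell, and likewise the number of mitochondrial genomes from the RNA made from each.

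The large rRNA, MT-RNR2 (chrM:1671-3229, plus strand, ENSG00000210082), is the 16S rRNA of the large mitochondrial ribosomal subunit. It stood at 10170.3, 11801 and 11141 CPM in the 3 shLUC libraries and 17142, 20919 and 17224 CPM in the 3 shFBL libraries. Every knockdown library was above every control library, and the gap between the groups was wider than the spread within either. The means were 11037 ± 820.2 CPM (SD, n = 3) and 18428 ± 2158 CPM (SD, n = 3), a 1.67-fold rise, with a log2 fold change of 0.74 ± 0.11 (SE) and an edgeR adjusted p of 7.09e-04.

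The small rRNA, MT-RNR1 (chrM:648-1601, plus strand, ENSG00000211459), is the 12S rRNA of the small subunit and precedes MT-RNR2 on the same precursor with only MT-TV between them. It stood at 2249.8, 2947 and 2554 CPM in the 3 shLUC libraries and 3842, 4535 and 3418 CPM in the 3 shFBL libraries. The groups again did not overlap, although knockdown replicate 3 came closer to control replicate 2 than any pair did for MT-RNR2. The means were 2584 ± 349.7 CPM (SD, n = 3) and 3932 ± 564 CPM (SD, n = 3), a 1.52-fold rise, with a log2 fold change of 0.61 ± 0.13 (SE) and an edgeR adjusted p of 0.0046.

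The ratio of MT-RNR2 to MT-RNR1 counts was 4.52, 4.0 and 4.36 in the controls and 4.46, 4.61 and 5.04 after knockdown. The highest control ratio lay above the lowest knockdown ratio, and the exact 2-sided permutation p for the difference was 0.2 (0.24 after Benjamini-Hochberg adjustment over the 6 shares and ratios tested), where 0.1 is the smallest p that 3 against 3 allows. This design could not pass 0.05 whatever the values, so the test says nothing on whether the 2 rRNAs rose equally.

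Rows of short nuclear noncoding RNAs were examined by type, in a list added after the values were seen, beside 15.8% of all genes tested called higher and 17.0% lower. Of 26 tested small nuclear RNA rows, 13 were called higher and 0 lower (median log2 fold change 0.62). Of 30 tested rows of the GENCODE type misc_RNA, which holds 7SL, Y and 7SK RNA and their copies, 14 were called higher and 0 lower (median 0.62). Of 36 tested small nucleolar RNA rows, 9 were called higher and 2 lower (median 0.29), a share near the 32.8% called among all genes tested. RNU1-4, a U1 row, was at 13.1, 11.2 and 13 CPM in the controls and 31.1, 47.6 and 51.8 CPM after knockdown, with a log2 fold change of 1.80 ± 0.17 (SE) and an edgeR adjusted p of 5.03e-05. SNORD3A, a U3 row, was at 2.1, 2.1 and 1.95 CPM in the controls and 6.41, 8.87 and 9.46 CPM after knockdown and changed by 2.01 ± 0.16 (SE) on the log2 scale, with an edgeR adjusted p of 2.13e-05. Summed over all rows of a type and not scaled by TMM, small nuclear RNAs ranged over 27.6 to 32.8 CPM in the controls and 50.5 to 84.2 CPM after knockdown, misc_RNA over 75.4 to 114 CPM in the controls and 107 to 167 CPM after knockdown and small nucleolar RNAs over 14 to 17.2 CPM in the controls and 25.9 to 34.7 CPM after knockdown. RNU1-4 and SNORD3A were the most counted tested rows of their types. The next small nuclear RNA rows by count, RNU6-8 and RNU6-3P, gave 0.63 ± 0.14 and 0.25 ± 0.21 on the log2 scale. Of these, RNU6-3P was not called (edgeR adjusted p = 0.395). SNORD3C and SNORD3B-1, the next small nucleolar RNA rows, gave 2.18 ± 0.14 and 2.19 ± 0.18. RN7SL2, the most counted misc_RNA row, gave 0.57 ± 0.20 (edgeR adjusted p = 0.046). Near-identical copies share reads in such rows. Whether the recovery of short or folded RNA differed between the libraries, and its part in the rise of the mitochondrial rRNAs and tRNAs, was not tested.

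The 13 mRNAs are described by the complex their proteins join. The plot of RPKM by library sets all 13 beside the rRNAs in gene order.

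**Figure D1:**
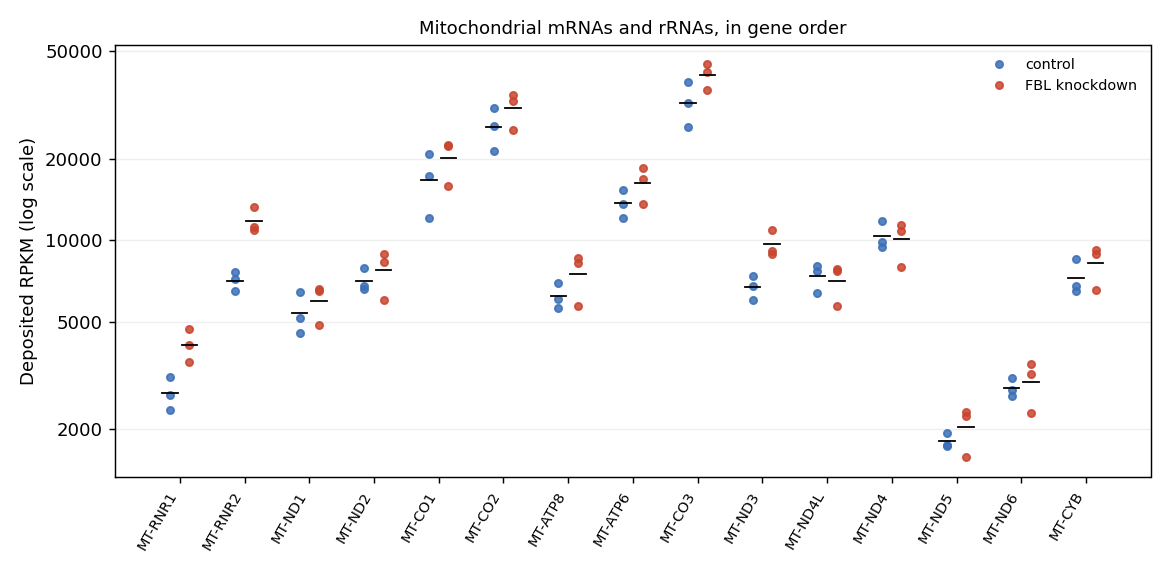
Deposited RPKM (reads scaled to gene length and library size; log axis) of the 2 mitochondrial rRNAs and 13 mRNAs in gene order; each point is a library, 3 control and 3 FBL knockdown, and each line is a group mean. Knockdown points lie above all control points for MT-RNR1, MT-RNR2 and MT-ND3, and overlap them for the other 12 genes.

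Of the 7 complex I mRNAs, MT-ND3 was the only one called. MT-ND3 (chrM:10059-10404, plus strand), a small membrane subunit next to the ubiquinone channel, stood at 2078, 2544 and 2341 CPM in the 3 shLUC libraries and 3116, 3831 and 3117 CPM in the 3 shFBL libraries. All 3 knockdown libraries were above the controls. Its mean was 2321 ± 234 CPM (SD, n = 3) in the controls and 3354 ± 412 CPM (SD, n = 3) after knockdown, with a log2 fold change of 0.53 ± 0.11 (SE) and an edgeR adjusted p of 0.00467.

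MT-ND4 (chrM:10760-12137), a proton-pumping membrane subunit that lies just downstream of MT-ND3 with MT-TR and MT-ND4L between them, was at 13556, 16103 and 12959 CPM in the controls and 14735, 15853 and 11116 CPM after knockdown. Its groups overlapped, and its log2 fold change was -0.03 ± 0.14 (SE) with an edgeR adjusted p of 0.887. MT-ND4L, which is read from the same mature mRNA as MT-ND4, gave -0.05 ± 0.13 (SE) on the log2 scale with an edgeR adjusted p of 0.787. The signs of both changed between the scalings and libraries used, so neither is given a direction. MT-ND1 and MT-ND2, the first mRNAs after the rRNAs, gave 0.16 ± 0.15 and 0.13 ± 0.14, and MT-ND5, another proton pump, gave 0.18 ± 0.13, with edgeR adjusted p-values of 0.427, 0.501 and 0.328.

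MT-ND6 (chrM:14149-14673, minus strand), the only mRNA of the light-strand transcript, was at 1395, 1620.3 and 1462 CPM in the controls and 1661, 1857 and 1213 CPM after knockdown. The groups overlapped, with a log2 fold change of 0.08 ± 0.14 (SE) and an edgeR adjusted p of 0.699. Its share of the counts of all 13 mRNAs was 1.22% ± 0.108 in the controls and 1.08% ± 0.064 after knockdown (SD, n = 3 each), and the exact 2-sided permutation p of this difference was 0.2 (0.24 after adjustment over 6). With 0.1 as the smallest p, this test could not have called a shift in the balance between MT-ND6 and the heavy-strand mRNAs. Whether the counting used strand is not given in the sources used here, so reads of MT-ND6 and of the RNA opposite to it cannot be told apart.

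The 3 complex IV mRNAs encode the catalytic core of cytochrome c oxidase, and none of them was called. MT-CO1, which holds the haem and copper site where oxygen is reduced, was at 18705, 31904 and 26622 CPM in the controls and 33827, 35065 and 24717 CPM after knockdown. Control replicate 1 was the lowest of the 6, and knockdown replicate 3 lay below both other controls. MT-CO1 and MT-CO2 gave log2 fold changes of 0.28 ± 0.19 and 0.24 ± 0.15 with edgeR adjusted p-values of 0.29 and 0.245. MT-CO3 was at 20696, 29970.1 and 25199 CPM in the controls and 32441, 35557 and 28545 CPM after knockdown, with a log2 fold change of 0.35 ± 0.14 (SE) and an edgeR adjusted p of 0.0856. It was called under 4 of 19 alternatives, with adjusted p-values from 0.00413 to 0.309.

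MT-CYB, the cytochrome b of complex III, gave 0.18 ± 0.15 (SE) on the log2 scale with an edgeR adjusted p of 0.359. MT-ATP8 and MT-ATP6, membrane subunits of ATP synthase, gave 0.28 ± 0.14 and 0.26 ± 0.13 with edgeR adjusted p-values of 0.163 and 0.155. These 2 genes share a stretch of 46 bases, which is 22.2% of the 207 bases of MT-ATP8 and is shown here because reads within it belong to both.
MT-ATP8 and MT-ATP6 overlap (chrM:8527-8572, plus strand, GRCh38, GENCODE v29): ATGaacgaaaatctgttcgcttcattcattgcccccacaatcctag
The capitals mark the start codon of MT-ATP6. As a share of MT-ATP6 counts, MT-ATP8 counts were 13.8% ± 1.3 in the controls and 13.9% ± 1.11 after knockdown (SD, n = 3 each). As a share of MT-ND4 counts, MT-ND4L counts were 15.4% ± 1.35 in the controls and 15.2% ± 0.507 after knockdown (SD, n = 3 each). The groups overlapped for both pairs, which were chosen after the values were seen. Both pairs lie on shared mature mRNAs, and the ratio within each moved by less than the spread between replicates. How the counting assigned a read that lies in 2 genes is not given in the sources used here.

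Levels of different genes were compared in RPKM, which corrects for gene length but not for how well each kind of RNA was captured. In the controls MT-CO3 had the highest mean (32339 ± 6053, SD, n = 3), followed by MT-CO2 (26309 ± 4773), MT-CO1 (16741 ± 4379) and MT-ATP6 (13688 ± 1586). MT-CO3 and MT-CO2 overlapped in range, as did MT-CO1 and MT-ATP6, while every MT-CO1 library lay below every MT-CO2 library. MT-ND4 came next (10333 ± 1247), below MT-ATP6 in all libraries. MT-ND4L, MT-CYB, MT-RNR2, MT-ND2, MT-ND3, MT-ATP8 and MT-ND1 followed with means from 7368 down to 5367, each overlapping its neighbour. The lowest were MT-ND6 (2849 ± 232), MT-RNR1 (2715 ± 378) and, below both, MT-ND5 (1806 ± 115).

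After knockdown the first 4 places were the same. MT-RNR2 had rank 8 in the controls and rank 5 after knockdown (11789 ± 1282 RPKM, SD, n = 3), with a range that overlapped that of MT-ND4 just beneath it (10071 ± 1818). MT-ND3 had rank 10 in the controls and rank 7 after knockdown (9669 ± 1109). MT-RNR1 (4112 ± 575) lay above MT-ND6 (2998 ± 631) in every knockdown library, whereas the ranges of these genes overlapped in the controls. Both rRNAs had lower mean RPKM than MT-CO1, MT-CO2, MT-CO3 and MT-ATP6 in both groups. How well these libraries captured rRNA beside mRNA was not measured, so this order need not be that in the cells.

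Of all counts, the 37 transcripts together took 12.4, 15.2 and 13.8% in the controls and 16.9, 18.8 and 14.7% after knockdown. The 13 mRNAs took 11, 13.7 and 12.3% in the controls and 14.7, 16.1 and 12.4% after knockdown. Control replicate 1 had the smallest share, and knockdown replicate 3 lay below control replicate 2, so the groups overlapped (exact 2-sided permutation p = 0.2, and 0.24 after adjustment over 6). The 2 rRNAs took 1.31, 1.4 and 1.38% in the controls and 2.04, 2.51 and 2.14% after knockdown. These groups did not overlap, and the exact permutation p was 0.1, the smallest that 3 against 3 allows (0.24 after adjustment). The 22 tRNA rows took 0.0993% ± 0.0158 in the controls and 0.115% ± 0.0168 after knockdown (SD, n = 3 each), with an exact permutation p of 0.4 before and after adjustment.

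**Figure D2:**
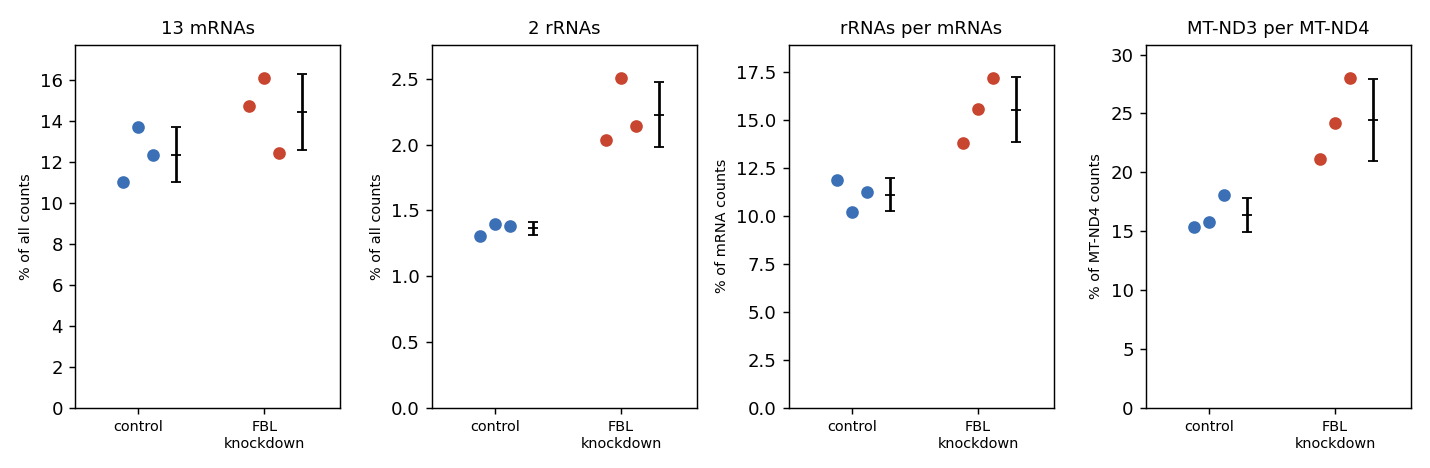
Counts of the 13 mitochondrial mRNAs and of the 2 rRNAs as a percentage of all counts of a library. The other panels show rRNA counts as a percentage of mRNA counts and MT-ND3 counts as a percentage of MT-ND4 counts. Each point is a library, and the bar beside each group is the mean with SD (n = 3), on separate linear axes from 0. The MT-ND3 to MT-ND4 ratio was chosen after the values were seen. The mRNA shares overlap between groups, while the rRNA share and both ratios do not.

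Setting rRNA against mRNA within a library removes the scaling to nuclear transcripts. As a share of the mRNA counts, the rRNA counts were 11.9, 10.2 and 11.2% in the controls and 13.8, 15.6 and 17.2% after knockdown. All knockdown libraries were higher, with means of 11.1% ± 0.848 in the controls and 15.5% ± 1.69 after knockdown (SD, n = 3 each), and the exact 2-sided permutation p was 0.1 (0.24 after adjustment over 6). Knockdown replicate 3, which had the lowest mRNA share of the knockdown group, had the highest ratio. Control replicate 2, which had the highest mRNA share of the controls, had the lowest ratio.

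Each transcript was also expressed per count of the 13 mRNAs. On this scale 10 of the 32 tested transcripts were higher in every knockdown library than in every control library, and 3 were lower, beside 7.01% higher and 22.7% lower among all genes tested (29.7% in either direction). The 10 were MT-RNR1, MT-RNR2, MT-ND3, MT-CO3, MT-TQ, MT-TM, MT-TW, MT-TA, MT-TN and MT-TC, and the 3 were MT-ND4, MT-ND4L and MT-TE. The 13 mRNAs make up this scale, so a larger share of some of them forces a smaller share of others. The scale also lowers genes in general after knockdown: in CPM, 22.1% of all genes tested were higher. The 7.01% therefore does not show how unusual the 10 are. As a share of the mRNA counts, MT-RNR2 stood at 9.71, 8.15 and 9.14% in the controls and 11.3, 12.8 and 14.3% after knockdown. In an edgeR fit with library size set to the 13 mRNAs, MT-RNR2 was the only 1 of the 32 called, beside 16.5% of all genes tested. Its log2 fold change there was 0.51 ± 0.11 (SE), with an edgeR adjusted p of 2.08e-04. This scaling moved the median log2 fold change of all genes to -0.23. MT-RNR1 gave 0.38 ± 0.15 (edgeR adjusted p = 0.0672), MT-ND3 0.30 ± 0.15 (0.164) and MT-ND4 -0.28 ± 0.11 (0.0705).

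Ratios of MT-ND3 and MT-CO1 to MT-ND4 were chosen after the values were seen and are given without a test. As a share of MT-ND4 counts, MT-ND3 counts were 15.3, 15.8 and 18.1% in the controls and 21.1, 24.2 and 28% after knockdown. The lowest knockdown share exceeded the highest control share. The ratio of MT-CO1 to MT-ND4 counts was 1.38, 1.98 and 2.05 in the controls and 2.3, 2.21 and 2.22 after knockdown. There control replicate 1 stood apart from the other 5 libraries.

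**Figure D3:**
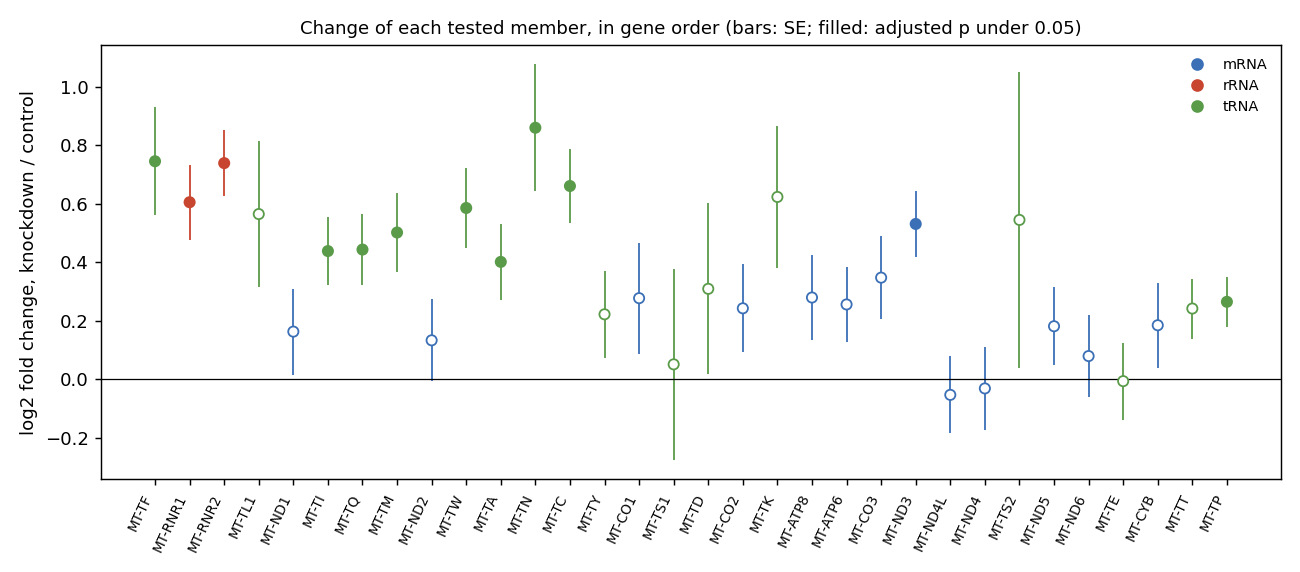
Log2 fold change (knockdown over control) of the 32 tested mitochondrial transcripts in the order of the genome, with bars of 1 standard error; colour gives the RNA class and filled points were called by edgeR at an adjusted p under 0.05. The called points are both rRNAs, MT-ND3 and 9 tRNAs, all above 0, and MT-ND2, MT-TS1, MT-ND4L, MT-ND4, MT-ND6 and MT-TE lie within 1 standard error of 0.

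The tRNA rows held few reads for their number of genes. Of 22 tRNAs, 17 passed the filter, and MT-TV, MT-TG, MT-TR, MT-TH and MT-TL2 did not, with 1 to 23 reads each over all 6 libraries. MT-TS1 and MT-TP together took 68.5% ± 2.3 of tRNA counts in the controls and 65.7% ± 2.29 after knockdown (SD, n = 3 each). Position went with the count. The 8 plus-strand tRNAs with plus-strand genes on both sides (MT-TV, MT-TL1, MT-TK, MT-TG, MT-TR, MT-TH, MT-TS2 and MT-TL2) had total counts of 1 to 371, with a median of 22.5. The other 14 had 584 to 206825, with a median of 12301.5. Of the first set 3 were tested and 0 called, and of the second 14 were tested and 9 called. The 3 tested rows of the first set, MT-TL1, MT-TK and MT-TS2, gave 0.57 ± 0.25, 0.62 ± 0.24 and 0.55 ± 0.51 on the log2 scale. These values lay within the 0.27 to 0.86 of the called tRNAs, so the calls do not show that the sets changed differently. These rows are 59 to 75 bases long, and a read counted in them can be part of an uncut precursor, of a neighbouring transcript or of RNA from the other strand. Which of these the reads came from was not tested.

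**Figure D4:**
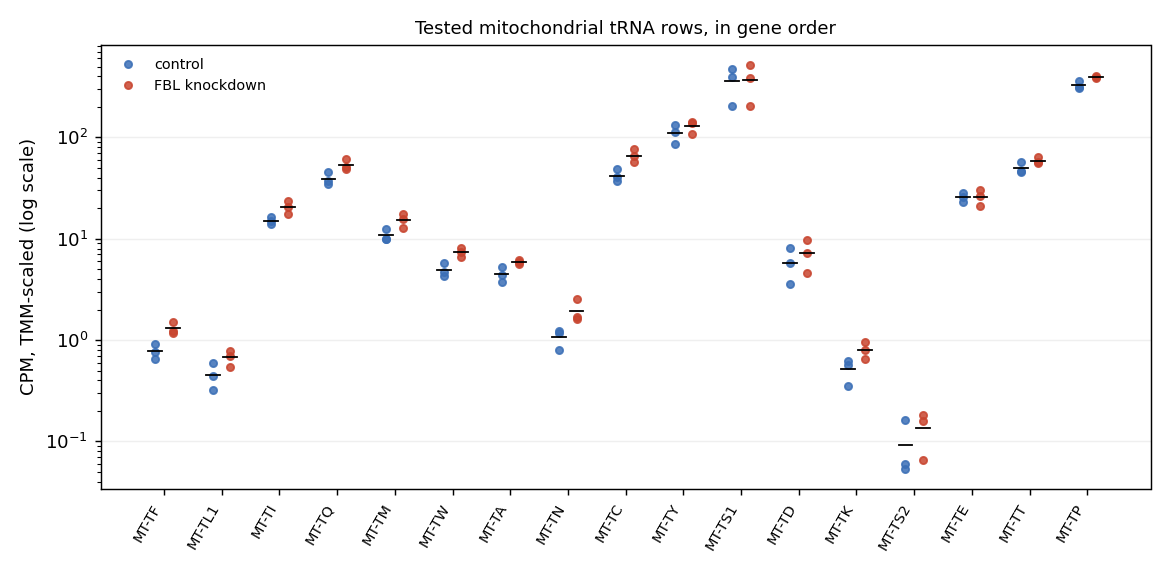
CPM (log axis) of the 17 tested mitochondrial tRNA rows in gene order; each point is a library, 3 control and 3 FBL knockdown, and each line is a group mean. The rows span from below 1 CPM for MT-TS2, MT-TL1 and MT-TK up to MT-TS1 and MT-TP, which lie highest, and the groups separate for 10 of the 17.

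Among tRNAs of the heavy-strand transcript, 4 of 9 tested were called higher, beside 15.8% of all genes tested. MT-TF, the first gene of that transcript, had 86, 75 and 66 reads in the controls and 109, 140 and 108 after knockdown. All knockdown libraries were above the controls, with a log2 fold change of 0.75 ± 0.19 (SE) and an edgeR adjusted p of 0.0107. It lies directly before MT-RNR1, which rose by 0.61 on the same scale. MT-TW, the tryptophan tRNA between MT-ND2 and MT-TA, was at 4.25, 5.81 and 4.67 CPM in the controls and 6.64, 8.17 and 7.31 CPM after knockdown, with a log2 fold change of 0.59 ± 0.14 (SE) and an edgeR adjusted p of 0.00757. MT-TI (isoleucine) and MT-TM (methionine), which flank MT-TQ between MT-ND1 and MT-ND2, rose by 0.44 ± 0.12 and 0.50 ± 0.13 on the log2 scale, with edgeR adjusted p-values of 0.0147 and 0.0152. MT-ND2, the mRNA that MT-TM and MT-TW enclose, was not called.

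The other 5 tested heavy-strand tRNAs were not called. MT-TK, the lysine tRNA, was at 0.354, 0.573 and 0.623 CPM in the controls and 0.965, 0.791 and 0.643 CPM after knockdown. Its groups did not overlap in CPM, yet its edgeR adjusted p was 0.0712 at a log2 fold change of 0.62 ± 0.24 (SE). MT-TL1, which carries leucine and lies between MT-RNR2 and MT-ND1, gave 0.57 ± 0.25 (edgeR adjusted p = 0.105), MT-TT (threonine) 0.24 ± 0.10 (0.0945) and MT-TD (aspartate) 0.31 ± 0.29 (0.449). MT-TS2, a serine tRNA, gave 0.55 ± 0.51 (0.443) from 64 reads in all, so its standard error was the largest of the 32.

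Among tRNAs of the light-strand transcript, 5 of 8 tested were called higher, beside 15.8% of all genes tested. These small sets do not show a difference between the strands. MT-TC, the cysteine tRNA, was at 37, 48.3 and 40.3 CPM in the controls and 76, 65.6 and 57 CPM after knockdown. The groups did not overlap, with a log2 fold change of 0.66 ± 0.13 (SE) and an edgeR adjusted p of 0.0025. MT-TN, the asparagine tRNA, had 75, 114 and 125 reads in the controls and 150, 157 and 224 after knockdown, and its log2 fold change of 0.86 ± 0.22 (SE) was the largest of the 32 (edgeR adjusted p = 0.0114). MT-TQ (glutamine) and MT-TA (alanine) rose by 0.44 ± 0.12 and 0.40 ± 0.13 on the log2 scale, with edgeR adjusted p-values of 0.0175 and 0.0365. MT-TP, the proline tRNA at the edge of the control region, was at 308, 359 and 317 CPM in the controls and 385, 394 and 403 CPM after knockdown. Its rise was the smallest of the 9 called tRNAs, 0.27 ± 0.08 (SE) on the log2 scale with an edgeR adjusted p of 0.0337.

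MT-TY, MT-TS1 and MT-TE were not called. MT-TY, the tyrosine tRNA that overlaps MT-TC by 1 base, gave 0.22 ± 0.15 (edgeR adjusted p = 0.283). MT-TS1 was at 204, 470.2 and 397 CPM in the controls and 388, 519 and 203 CPM after knockdown, lowest in knockdown replicate 3 and control replicate 1. It gave 0.05 ± 0.33 (SE) with an edgeR adjusted p of 0.922. MT-CO1, on the opposite strand beside it, was lowest in the same 2 libraries, and as a share of its counts MT-TS1 stood at 1.09, 1.47 and 1.49% in the controls and 1.15, 1.48 and 0.82% after knockdown, a ratio chosen after the values were seen. MT-TE (glutamate), which adjoins MT-ND6 on the light-strand transcript, gave -0.01 ± 0.13 (SE) with an edgeR adjusted p of 0.976, and MT-ND6 gave 0.08. The signs of MT-TS1, MT-TE and MT-ND6 changed between settings.

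How far the calls held differed between transcripts. MT-RNR1, MT-RNR2, MT-ND3, MT-TW and MT-TC were called under all 19 alternatives, which do not include the scaling to the 13 mRNAs given above. MT-TN lost its call in 1 of 18, MT-TF in 2 of 18, MT-TI, MT-TQ and MT-TM in 2 of 19, MT-TA in 6 of 19 and MT-TP in 9 of 19. Leaving out a library gave 6 calls without control replicate 3 and likewise without FBL knockdown replicate 2, and 22 calls without control replicate 2.

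Nuclear pseudogenes of mitochondrial DNA can draw reads from the true genes, because their sequences are nearly the same. The table held 73 rows with such symbols, of which 24 were tested, 4 called higher and 0 lower, with a median log2 fold change of 0.25. The share called higher was near the 15.8% of all genes tested. They took 0.714% of all counts, and 3 rows held 87.9% of these. MTATP6P1 was counted at 22.6% of MT-ATP6, MTND2P28 at 19.7% of MT-ND2, MTCO1P12 at 8.61% of MT-CO1 and MTCO3P12 at 1.4% of MT-CO3. Their log2 fold changes of 0.23 ± 0.14, 0.23 ± 0.13, 0.26 ± 0.18 and 0.39 ± 0.13 stood beside 0.26, 0.13, 0.28 and 0.35 for the mitochondrial genes. Of these most counted rows, MTCO3P12 was called (edgeR adjusted p = 0.0361) and the others were not (0.239, 0.218 and 0.308). The remaining calls, named outside the rule, were copies of MT-RNR2, which itself gave 0.74. They were MTRNR2L12 (0.74 ± 0.10, edgeR adjusted p = 4.00e-04), MTRNR2L8 (0.63 ± 0.14, 0.0054) and MTRNR2L2 (1.27 ± 0.39, 0.0278). MTRNR2L2 had only 6 to 32 reads a library. MTRNR2L10, a further copy, gave 0.40 ± 0.38 and was not called (0.442). Whether their reads came from MT-RNR2 was not tested. Adding each pseudogene row to its mitochondrial gene, an alternative chosen after the data were seen, left the same 12 transcripts called.

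Among nuclear genes that maintain mitochondrial DNA and transcribe, process and modify mitochondrial RNA, all calls but that of YBEY were falls, beside 17.0% of all genes tested called lower and 15.8% called higher. These lists were chosen from textbook functions with earlier results of these data known. Of 23 tested genes of mitochondrial DNA maintenance and transcription, 7 were called lower, 0 higher and 16 were not called (median log2 fold change -0.18). The share called in this list, 30.4%, was near the 32.8% of all genes tested called in either direction. POLG, the catalytic subunit of the mitochondrial DNA polymerase, was at 99.4, 92.6 and 93.1 CPM in the controls and 61.6, 54 and 57.1 CPM after knockdown and fell, with a log2 fold change of -0.72 ± 0.08 (SE) and an edgeR adjusted p of 1.50e-04. TWNK, the replicative helicase, POLRMT, the mitochondrial RNA polymerase, and TOP3A, a topoisomerase that separates daughter circles, fell with -0.61 ± 0.10, -0.59 ± 0.15 and -0.51 ± 0.09 (edgeR adjusted p = 8.28e-04, 0.0124 and 0.00196). TFAM, the factor that packs mitochondrial DNA, gave -0.11 ± 0.12 and was not called (0.511); it was named after its value was seen. The 7 calls became 4 without FBL knockdown replicate 3.

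Of 27 genes for processing, stability and decay of mitochondrial RNA, 13 were called lower, 1 higher and 13 were not called (median -0.34). The share called was 51.9%, beside 32.8% of all genes tested (17.0% lower and 15.8% higher). ELAC2, the nuclease that cuts the 3′ ends of mitochondrial tRNAs, was at 68.6, 58.6 and 61.4 CPM in the controls and 40.3, 37.6 and 41.9 CPM after knockdown and fell by 0.65 ± 0.09 on the log2 scale (edgeR adjusted p = 3.87e-04). FASTKD5, needed to mature mRNAs that no tRNA flanks, DHX30, a helicase of mitochondrial RNA granules, and PNPT1, the exonuclease of the mitochondrial degradosome, fell with -0.93 ± 0.15, -0.68 ± 0.09 and -0.55 ± 0.19 (edgeR adjusted p = 8.74e-04, 2.70e-04 and 0.0438). The gene that rose was YBEY (0.45 ± 0.12, 0.0164), named outside the rule as the single rise. The 14 calls became 7 without control replicate 3, without FBL knockdown replicate 2 and without FBL knockdown replicate 3.

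Of 14 genes for modification of mitochondrial rRNA, 8 were called lower, 0 higher and 6 were not called (median -0.37). The share called was 57.1%, beside 32.8% of all genes tested (17.0% lower and 15.8% higher). MRM1 and MRM3, which place 2'-O-methyl groups on the 16S rRNA, TFB1M, which dimethylates the 12S rRNA, and RPUSD4, a pseudouridine synthase of the 16S rRNA, fell with -0.81 ± 0.14, -0.68 ± 0.11, -0.77 ± 0.13 and -0.57 ± 0.08 (edgeR adjusted p = 0.00157, 7.58e-04, 0.00109 and 4.70e-04). The 2 rRNAs that these enzymes act on were called higher in the same libraries. Of 18 genes for modification of mitochondrial tRNA, 11 were called lower, 0 higher and 7 were not called (median -0.28), a share called of 61.1%. CDK5RAP1, DUS2, QTRT2 and NSUN2 fell with -0.84 ± 0.12, -0.79 ± 0.09, -0.74 ± 0.12 and -0.63 ± 0.10 (edgeR adjusted p = 4.80e-04, 1.53e-04, 0.00127 and 0.0010). CDK5RAP1 thiomethylates an adenosine beside the anticodon, DUS2 makes dihydrouridine, QTRT2 is part of the queuine transferase and NSUN2 is a cytosine methyltransferase. DUS2, QTRT2 and NSUN2 also act on cytoplasmic tRNAs. The 11 calls became 7 without control replicate 3, and 5 without FBL knockdown replicate 2 and likewise without FBL knockdown replicate 3.

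**Figure D5:**
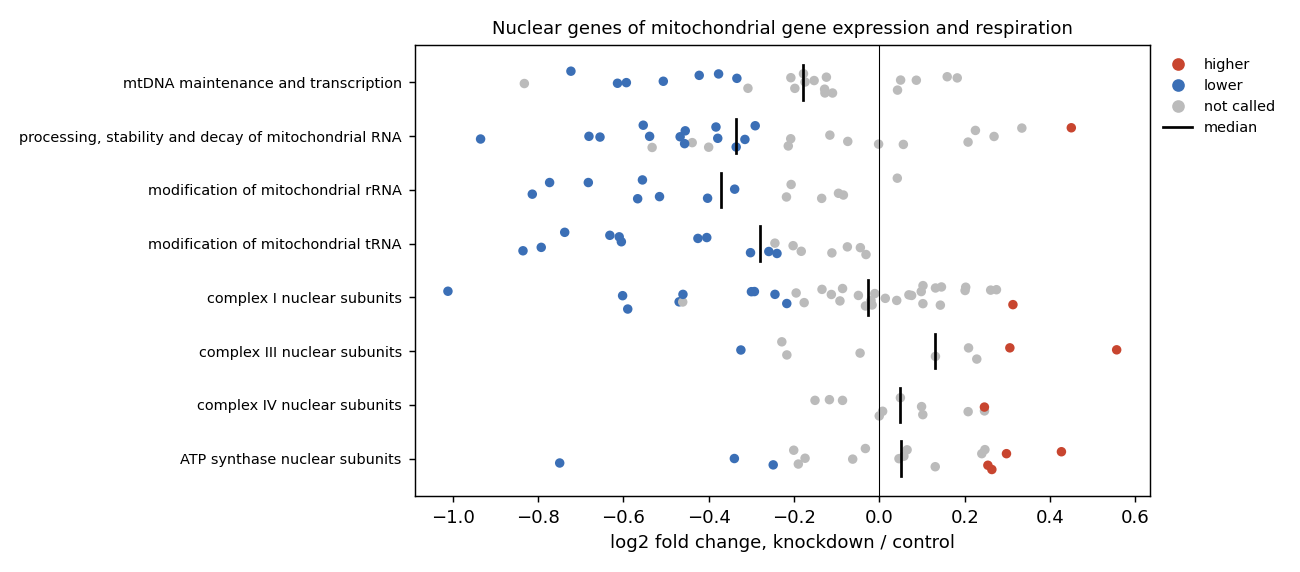
Log2 fold change (knockdown over control) of nuclear genes in 8 lists; each point is a tested gene, coloured where edgeR called it at an adjusted p under 0.05, and each black line is the list's median. Points called lower outnumber points called higher in the first 5 lists, and complex III, complex IV and ATP synthase have medians of 0.13, 0.05 and 0.05.

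Nuclear partners of the mitochondrial mRNAs' products were called in both directions, at shares of 27.8% for complex I, 33.3% for complex III, 9.09% for complex IV and 38.9% for ATP synthase. All genes tested were called at 32.8% (15.8% higher and 17.0% lower), so the shares for complex I, complex III and ATP synthase were near the background. Of 36 tested complex I subunits, 9 were called lower, 1 higher and 26 were not called (median -0.03). Subunits NDUFB7, NDUFS1 and NDUFA10 fell with -0.60 ± 0.20, -0.59 ± 0.13 and -0.47 ± 0.13 (edgeR adjusted p = 0.0379, 0.00629 and 0.0164). The groups overlapped for NDUFB7, with control replicate 1 at 109 CPM and knockdown replicate 1 at 121 CPM. Of 9 complex III subunits, UQCR10 (0.56 ± 0.08) and UQCRQ (0.31 ± 0.08) rose and UQCRC2 (-0.32 ± 0.09) fell (edgeR adjusted p = 3.91e-04, 0.0162 and 0.0163), and 6 were not called (median 0.13). Of 11 complex IV subunits, COX8A rose (0.25 ± 0.08, 0.0463) and 10 were not called (median 0.05). Of 18 ATP synthase genes, 4 rose, 3 fell and 11 were not called (median 0.05). ATP5F1A and ATP5F1B, the alpha and beta subunits of the catalytic head, fell with -0.75 ± 0.08 and -0.34 ± 0.08, and ATP5F1E and ATP5PO, subunits of the central and peripheral stalks, rose with 0.43 ± 0.10 and 0.30 ± 0.09 (edgeR adjusted p = 1.24e-04, 0.00903, 0.00973 and 0.0256). These counts rested on single libraries: complex I had 4 calls without control replicate 3 and 3 without FBL knockdown replicate 2 or 3, and complex III had 5 without FBL knockdown replicate 1 and 1 without FBL knockdown replicate 3. COX8A lost its call without any of the control libraries and without FBL knockdown replicate 2. ATP synthase had 4 calls without control replicate 1 and 2 without control replicate 3 or FBL knockdown replicate 2 or 3.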

How the data were processed

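RNA of 6 Kasumi-1 samples (3 control, 3 FBL knockdown) was sequenced from total RNA with a NEBNext Ultra kit, per the labels' protocols. The authors named the deposited data mRNA-seq, so the rRNA counts may be what remained after a selection of mRNA. How mRNA was selected is not stated here, and its part in the rRNA levels was not tested. The authors deposited whole-number counts per Ensembl gene and a second table of RPKM. Per the submitters' processing notes, the tools were cutadapt 1.18, featureCounts, HISAT2 and edgeR, on build GRCh38. Not given in the sources used here are the gene annotation release, whether counting used strand, and how multiply mapped reads were counted. Reads that fit both a mitochondrial gene and a nuclear copy, or both strands, may thus be split or lost. The deposited RPKM values were recomputed from the counts, gene lengths and TMM factors, and 191796 of 191796 were matched within a relative tolerance of 1e-06.

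Counts were filtered with filterByExpr (minimum count 10, minimum total 15), which kept 18486 of 31966 genes, and tested with edgeR 4.0.16 in R 4.3.3 (quasi-likelihood test on group, TMM scaling, Benjamini-Hochberg adjustment over all genes tested, threshold 0.05). Standard errors come from the quasi-likelihood F statistic. The test was run on counts simulated from its own model, with far fewer changed genes than were called here, all of them raised. This checks the code and not the calls. Shares and ratios of raw counts were compared with exact 2-sided permutation tests over samples. Alternatives used limma 3.58.1, DESeq2 1.42.0, other scalings and filters, a replicate block and each library left out. Genes were matched to GENCODE v29 for positions and sequences.

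All mRNAs and rRNAs are named. A tRNA is named with values where it passed the filter. Other lists give up to 4 called genes with the largest absolute log2 fold change and a mean of at least 1 CPM, and nuclear copies the 4 with the most reads. The members and lists were chosen with earlier results of these data known. A gene that this rule names in the complex I list is not reported here.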

Additional observations from a re-analysis of the deposited data

How the results depend on the processing

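Of the 12 transcripts called, the number ran from 6 (without control replicate 3, and without FBL knockdown replicate 2) to 22 (without control replicate 2) when single libraries were left out, and was 1 with library size set to the 13 mRNAs. It stayed within 1.5 times under the other alternatives run. The labels do not say that replicate numbers pair the samples. Correlations of deviations from the group mean were -0.28, -0.20 and 0.04 for libraries of the same number. For libraries of different numbers they ran from -0.16 to 0.31. Deviations centred within such small groups do not settle whether samples were paired. A replicate block called 10. Upper-quartile scaling made 58.7% of all calls rises, against 48.2%, and added MT-CO3 and MT-TT.

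Signs changed for transcripts that were not called. Under upper-quartile scaling MT-ND4L was 0.012, MT-ND4 0.034 and MT-TE 0.058 on the log2 scale. A stricter filter gave MT-ND4 0.019 and MT-TE 0.044. MT-TE was 7.12e-05 under RLE scaling and 0.018 under TMM without mitochondrial genes. With single libraries left out MT-TS1 ran from -0.27 to 0.37, MT-ND4L from -0.15 to 0.11, MT-ND4 from -0.13 to 0.13, MT-ND6 from -0.053 to 0.26 and MT-TE from -0.13 to 0.15.

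Gene lists lost calls under the replicate block: mitochondrial DNA maintenance had 4, RNA processing 6, tRNA modification 6, complex I 3, complex III 1, complex IV 0 and ATP synthase 3. With single libraries left out the ranges were 4 to 8 for maintenance, 7 to 18 for processing, 5 to 11 for tRNA modification, 3 to 10 for complex I, 1 to 5 for complex III, 0 to 1 for complex IV and 2 to 7 for ATP synthase. The stricter filter gave 9 for processing and 7 for tRNA modification, and no filter gave 4 for ATP synthase. Complex IV had 0 under RLE, library size only, no filter, DESeq2 and limma-trend at both pseudocounts, and 2 under upper-quartile scaling. The cause was not tested. The rRNA modification list stayed within 1.5 times throughout. Shares and ratios kept their direction in every alternative run, and none could reach p under 0.05 with 3 libraries a group. For 5 tRNAs the depth of 1 to 23 reads allowed no test.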
